A study of Mus musculus with 2 samples.

Results

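The genes described here are 34 genes of cholesterol synthesis, sterol sensing, sterol efflux and lipid storage, measured in nucleoplasmic RNA of mouse macrophages. They were taken by symbol, and 34 of 34 symbols matched 1 gene identifier among the 55536 annotated genes. By role they fall into 14 enzymes of sterol synthesis, 5 genes of SREBP control, 9 genes of LXR signalling, efflux, sterol esterification and oxysterol synthesis, and 6 genes of fatty acids, lipases and droplets. Marrow cells of C57BL/6J mice had been grown into macrophages and then given lipid A, 100 ng/ml, for 20 min. Lipid A is the part of bacterial lipopolysaccharide that the receptor TLR4 senses. The series has 1 group of 2 libraries of ribosomal-RNA-depleted total RNA, made from 1 µg of RNA in replicate 1 and 500 ng in replicate 2, so the effect of RNA input cannot be told apart from that of the replicate. Both carry the same donor identifier, and whether each had its own culture or animal is not stated, so the spread over n = 2 libraries may be technical. In bulk RNA, fewer cells of a type and less RNA per cell cannot be told apart. Untreated cells and other fractions were not analysed here, so the values are levels after lipid A and not changes caused by it.

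Cells hold cholesterol within limits with a pair of opposed programmes. When sterols in the endoplasmic reticulum are low, SCAP escorts the SREBP factors to the Golgi, where they are cleaved and released to the nucleus to switch on the enzymes of sterol and fatty acid synthesis. INSIG proteins hold SCAP back when sterols are plentiful. Oxysterols made from excess cholesterol activate the LXR receptors, which raise the efflux pumps ABCA1 and ABCG1 and apolipoprotein E, and a macrophage that takes up more cholesterol than it exports stores it as esters in lipid droplets.

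Depth was 18194818 gene counts in replicate 1, against 18667509 for replicate 2. In the macrophage list 9 of 9 markers reached 1 TPM in both libraries, with a summed level of 3753 and 3424 TPM, where TPM is a transcript abundance scaled for length and depth. Liver is the main other site of many of these genes, and the 4 hepatocyte markers summed to 0.18 TPM in each library, with Alb and Apob at 0 counts in the gene table. Of 5 adipocyte markers 1 reached 1 TPM, the fatty acid carrier gene Fabp4 at 178 and 85.6 TPM, which macrophages also express, while Plin1, Cidec and Lep were at 0 counts there in both libraries. The 4 neutrophil markers summed to 2.11 and 1.17 TPM, with Ly6g at 0 counts, and the 5 stromal markers to 0.14 and 0.12 TPM, with Lepr at 0 counts, although the second quantification gave Lepr 2.35 and 10.2 TPM.

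The promoters of the sterol synthesis genes shared letters that the choice of members did not use. RefSeq promoter windows on GRCm38.p6 were at hand for 27 of the 34 members, and the 250 bases before each start were searched on both strands, counting a gene once if any of its windows held the motif. The NF-Y box CCAAT was found in 11 of 11 sterol synthesis genes, in 9 of the 16 other members (56.25%) and in 37.5% of 27025 genes. The Sp1 box GGGCGG was found in 10 of 11 sterol synthesis genes, in 8 of the 16 other members and in 35.4% of all genes. The other members were not alike. Of the 5 SREBP control genes 4 held the NF-Y box and 5 the Sp1 box, so these boxes were not particular to sterol synthesis. Each box was in 3 of the 8 LXR and efflux genes. Of the 3 fatty acid and droplet genes, 2 held the NF-Y box and 0 the Sp1 box. NF-Y and Sp1 are general factors known to act beside SREBP on sterol promoters. The TATA box TATAAA was found in 0 of 11 sterol synthesis genes, in 5 of the 16 other members and in 14.3% of all genes. The search took a match at any position. It began at -29 in Abca1 and at -32 in Mylip, whereas in Apoe, Ch25h and Scap the matches lay farther out, between -250 and -91. The sterol regulatory element core TCACCCCAC was found in 1 member, Hmgcs1, and in 0.555% of all genes, and a looser form of it, with any base at the fifth position, in the same member and in 1.22% of all genes. The nuclear receptor hexamer AGGTCA was found in 4 members, Hmgcs1, Dhcr7, Insig1 and Plin2, and in 15.8% of all genes. An exact repeat of that hexamer after any 4 bases, a strict form of the LXR element, was found in 0 of 27 members. It was found in only 4 of 27025 genes (0.0148%), so the search could hardly have found a member. Elements with other bases were not searched for, so the result does not show that members lack an LXR element. The motif counts are matches of letters in short windows, 38 for the 27 members and 32851 for the 27025 genes. A gene with more windows has more room for a match, and binding was not measured.

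Stretches of 6 of these windows are shown because they let the layouts be compared, 3 from sterol synthesis, 1 from the sterol sensor Insig1, 1 from the fatty acid synthase gene Fasn and 1 from the efflux pump gene Abca1. Each is read 5′ to 3′ on the strand of its gene, with GRCm38.p6 coordinates from RefSeq, and lies before the start and outside annotated exons. Capitals mark the NF-Y, Sp1 and TATA boxes on either strand and the sterol regulatory element core.
Hmgcs1, chr13:119690102-119690344 (+ strand): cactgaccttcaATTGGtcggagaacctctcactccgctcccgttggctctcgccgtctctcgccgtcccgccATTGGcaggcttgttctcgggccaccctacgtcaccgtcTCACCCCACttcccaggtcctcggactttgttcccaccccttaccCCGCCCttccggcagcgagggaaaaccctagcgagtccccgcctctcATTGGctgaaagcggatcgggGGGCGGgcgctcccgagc
Mvd, chr8:122443433-122443574 (- strand): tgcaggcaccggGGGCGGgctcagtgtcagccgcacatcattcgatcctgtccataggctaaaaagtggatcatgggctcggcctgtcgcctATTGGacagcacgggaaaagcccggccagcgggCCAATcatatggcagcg
Lss, chr10:76531427-76531559 (+ strand): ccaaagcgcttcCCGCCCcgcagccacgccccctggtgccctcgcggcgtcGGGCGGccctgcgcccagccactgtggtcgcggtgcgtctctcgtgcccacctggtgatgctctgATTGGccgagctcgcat
Insig1, chr5:28071171-28071303 (+ strand): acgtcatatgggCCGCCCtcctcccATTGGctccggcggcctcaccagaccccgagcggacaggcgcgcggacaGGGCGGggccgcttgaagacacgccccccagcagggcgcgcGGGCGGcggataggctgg
Fasn, chr11:120824590-120824649 (- strand): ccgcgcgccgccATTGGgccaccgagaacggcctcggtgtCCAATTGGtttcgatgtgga
Abca1, chr4:53159907-53160070 (- strand): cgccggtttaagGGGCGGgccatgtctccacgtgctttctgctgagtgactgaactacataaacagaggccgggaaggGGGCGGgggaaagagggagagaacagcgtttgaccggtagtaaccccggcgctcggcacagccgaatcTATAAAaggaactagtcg

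Hmgcs1 held 3 NF-Y boxes, 2 Sp1 boxes and the sterol element in one stretch of 243 bases. Mvd held 2 NF-Y boxes and 1 Sp1 box, Lss 1 and 2, and Insig1 1 and 3. Fasn held 3 NF-Y boxes and no Sp1 box, and its NF-Y boxes at -62 to -58 and -59 to -55 overlap on opposite strands. Abca1 instead held 2 Sp1 boxes and a TATA box and no NF-Y box.

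**Figure D1:**
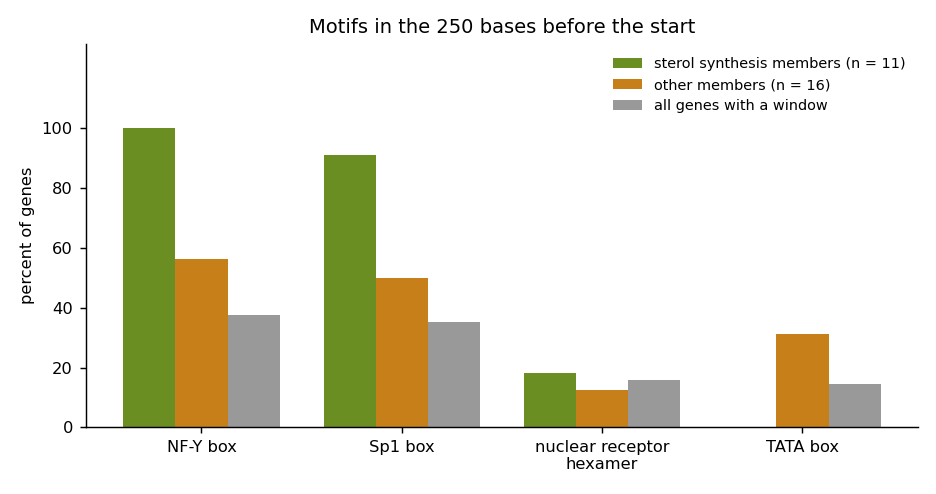
Percent of genes (y axis) whose 250 bases before the start held each motif (x axis), for the 11 sterol synthesis members, the 16 other members and all genes with a promoter window. The NF-Y box was in 11 of 11 sterol synthesis genes, against 37.5% of all genes, and the TATA box was in none of them. The other members are pooled, and among them 4 of 5 SREBP control genes held the NF-Y box and 5 of 5 the Sp1 box.

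In level, the genes of cholesterol handling stood far above those of cholesterol synthesis. Of the 34 members, 32 were at 1 TPM or more in both libraries, against 44.9% of 22015 nuclear-encoded protein-coding genes. The exceptions were Ch25h and Scd1. The second quantification also had 32 members at that level, against 46.9% of those genes. The median level of the 9 LXR and efflux genes was 42.4 ± 7.25 TPM (SD, n = 2), that of the 6 fatty acid and droplet genes 23.9 ± 2.73 TPM, that of the 5 SREBP control genes 19.9 ± 7.35 TPM and that of the 14 sterol synthesis genes 7.50 ± 1.49 TPM. The fatty acid and SREBP medians changed places between the libraries, at 21.98 and 25.1 TPM in replicate 1 and 25.8 and 14.7 TPM in replicate 2. The 34 members together took 0.634% of gene counts in replicate 1 (exact Clopper-Pearson 95% interval 0.631 to 0.638) and 0.648% in replicate 2. These intervals cover counting error only.

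**Figure D2:**
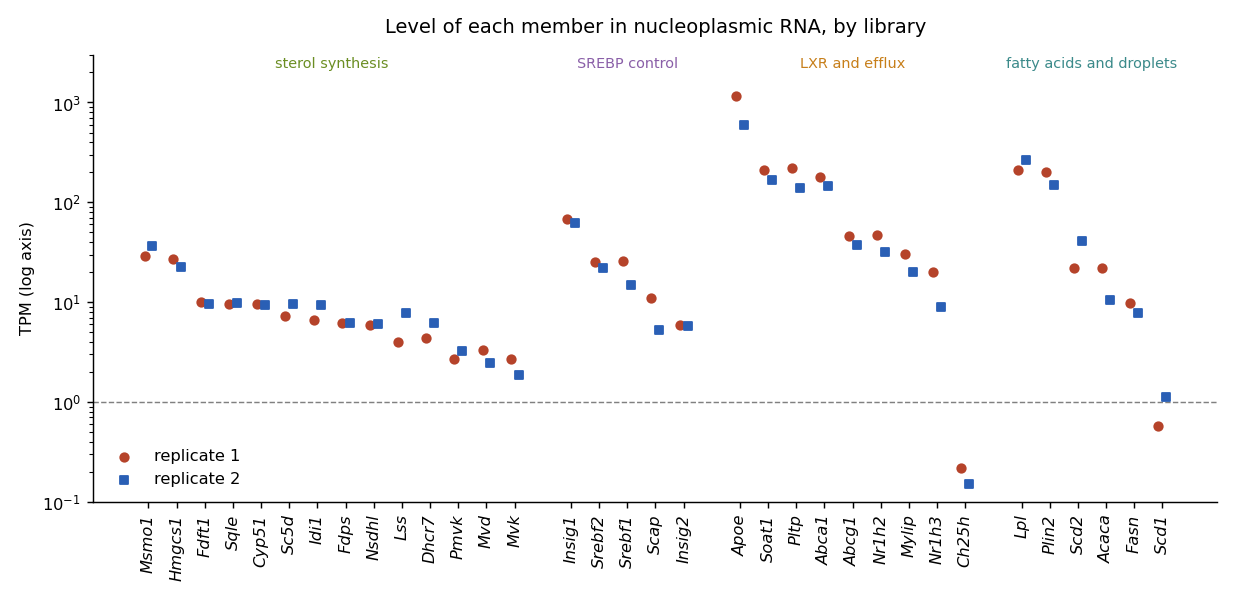
TPM of each of the 34 members (log y axis) in replicate 1 (circles) and replicate 2 (squares), ordered by mean level within each role. The dashed line is 1 TPM; Apoe stood highest, at 1147 and 600.8 TPM, and Ch25h lowest, at 0.22 and 0.15 TPM.

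Sterol synthesis was present along its whole length and at low level, with all 14 enzymes measured above 1 TPM in both libraries and 12 of 14 below 10 TPM on average. Msmo1, which oxidises the methyl groups that are taken off lanosterol-derived sterols, was the highest, with 29.0 TPM for replicate 1 and 36.9 TPM for replicate 2. Hmgcs1, the synthase that makes HMG-CoA at the head of the pathway, followed at 27.0 and 22.6 TPM. These 2 stood apart from the rest of the group in both libraries. Coding transcripts held 44.5% and 36.3% of the TPM of Msmo1, against 80.6% and 82.1% for Hmgcs1. On coding transcripts alone Hmgcs1 was therefore the higher of the 2. Squalene is made by Fdft1, at 9.92 and 9.56 TPM, and Sqle, whose product opens the sterol branch, was at 9.66 and 9.81 TPM. Both lay above the group median, next to Cyp51 at 9.48 and 9.27 TPM. The lowest by mean level were the kinase gene Mvk, at 2.67 and 1.87 TPM, and the decarboxylase gene Mvd, at 3.30 and 2.47 TPM, both early in the pathway. Mvk rested on 75 and 62 counts and Pmvk, the next kinase, on 50 and 63 counts, so their order among the low members was not resolved. The other 8 enzymes ranged from 2.71 TPM for Pmvk to 9.48 TPM for Cyp51 in replicate 1 and from 3.24 TPM for Pmvk to 9.64 TPM for Sc5d in replicate 2. Among them Nsdhl was at 5.94 and 6.1 TPM.

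In SREBP control, Insig1 was the most abundant gene, with 68.7 TPM for replicate 1 and 62.7 TPM for replicate 2, rank 665 of 22015 protein-coding genes by mean level. Insig1 and Insig2 both encode retention proteins for SCAP, and Insig1 is itself a target of SREBP. Insig2 was at 5.97 and 5.71 TPM, so that Insig1 stood 11.5-fold and 11.0-fold above it. The second quantification gave this ratio as 6.07 and 7.52. Posterior-mean TPM also gave a smaller ratio, with 64.7 and 59.9 TPM for Insig1 and 10.6 and 8.93 TPM for Insig2. Srebf2, whose product mainly drives sterol synthesis, was at 25.1 and 21.97 TPM. Srebf1, whose products mainly drive fatty acid synthesis, was at 26.1 and 14.7 TPM. By whole-gene TPM the order of the 2 SREBP genes thus differed between the libraries, and their levels did not differ beyond that spread. Coding transcripts held 43.4% and 40.7% of Srebf1 TPM, against 60.4% and 62.8% for Srebf2. On coding transcripts alone Srebf2 was therefore the higher in both libraries. It was also higher in counts, which do not divide by length, with 1781 and 1907 against 996 and 663 for Srebf1. Scap was at 11.1 and 5.29 TPM. Srebf1 has more than 1 start, and Srebf1-201, which starts at position 60220604 of chromosome 11 (minus strand, mm10), took 35.2% and 39.5% of the gene's TPM. Srebf1-207, which starts downstream at 60210465, took 3.79% and 1.15%.

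Among LXR and efflux genes, Apoe, which encodes the lipoprotein that carries cholesterol away from macrophages, had 1147 TPM for replicate 1 and 600.8 TPM for replicate 2 and ranked 13 of all protein-coding genes. Pltp, the phospholipid transfer protein gene, was at 220 and 138 TPM. Abca1, the pump that loads cholesterol onto apolipoproteins, was at 178 and 146 TPM, with 33682 and 33802 counts over a transcript of 10262 bases. Soat1, whose enzyme esterifies cholesterol for storage, was at 212 and 167 TPM. The values of Pltp, Abca1 and Soat1 overlapped between the libraries, so their order was not resolved. Abcg1, the second pump, was at 45.8 and 37.3 TPM, below Abca1 in both libraries. Mylip, whose product IDOL is an LXR target that marks lipoprotein receptors for degradation, was at 30.1 and 19.8 TPM. Of the receptors, Nr1h2 (LXR-beta) was at 47.5 and 31.6 TPM and Nr1h3 (LXR-alpha) at 20.2 and 8.90 TPM. By TPM Nr1h2 was therefore 2.35-fold and 3.55-fold above Nr1h3, and 1.82-fold and 3.87-fold in the second quantification. TPM divides by length, and Nr1h2-212, a transcript of 544 bases, took 31.9% and 27.9% of Nr1h2 TPM on 97 and 71 counts. In counts the gap was smaller, with 909 and 747 for Nr1h2 and 590 and 233 for Nr1h3.

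Ch25h, which makes 25-hydroxycholesterol and is known as an interferon and TLR target in macrophages, was barely detected. It had 5 counts in replicate 1 and 4 in replicate 2, or 0.22 and 0.15 TPM, close to the limit of 3 counts that an absent signal allows. The second quantification gave 0.08 and 0.11 TPM. It has 1 exon and 1 annotated transcript.

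Among the genes of fatty acids and droplets, Lpl, a lipase that releases fatty acids from lipoproteins, had 209 TPM for replicate 1 and 266 TPM for replicate 2, rank 109. Plin2, the coat protein of macrophage lipid droplets, was at 202 and 150 TPM. Both exceeded the synthesis enzymes of their group several-fold in each library. Acaca, which makes malonyl-CoA, was at 21.98 and 10.5 TPM, and Fasn, the fatty acid synthase, at 9.75 and 7.71 TPM. The desaturase gene Scd2 was at 21.98 and 41.2 TPM, whereas Scd1, the form best known from liver and fat, was at 0.58 and 1.11 TPM. Scd2 stood 37.9-fold above Scd1 in replicate 1 and 37.1-fold in replicate 2. The 2 genes share sequence, with 5.18% of the 31-base words of Scd1 transcripts also in Scd2, so reads could be split between them. The second quantification gave 38.3-fold and 36.3-fold. Posterior-mean TPM gave smaller ratios, with 20.7 and 39.4 TPM for Scd2 and 1.1 and 1.52 TPM for Scd1.

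The libraries were then set against each other gene by gene, which describes this pair and no condition. Ratios are of scaled counts, replicate 1 over replicate 2, on the log2 scale, with exact 95% counting intervals, for genes that averaged at least 10 scaled counts. The 14 sterol synthesis genes leaned one way. Of these, 12 were lower and 2 higher in replicate 1, with a median log2 ratio of -0.40, against -0.0034 over all 15557 genes tested. The interval lay below 0 in 9 of 14 and above 0 in none, against 24.5% and 25.6% of all genes tested; in the second quantification 8 lay below and 1 above. Intervals held 0 for Hmgcs1 (-0.08), Mvk (0.21), Pmvk (-0.39), Mvd (0.06) and Fdps (-0.30). In the second quantification Mvd had 0.42 (0.16 to 0.69). Idi1, the isomerase that follows Mvd, had -0.72 (interval -0.92 to -0.51), Msmo1 had -0.65 (-0.77 to -0.52) and Dhcr7, the last reductase of the pathway, had -1.01 (-1.30 to -0.74). Transcript GC content had a median of 0.502 in the sterol genes and 0.494 in all genes tested. With the trend of the ratio on GC taken out, 13 of 14 were lower and the median was -0.36.

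Over 2-fold, 1 member was higher in replicate 1 and 3 were higher in replicate 2, against 3.67% and 4.36% of all genes tested (8.03% either way). Nr1h3 was higher in replicate 1, with 590 counts in replicate 1 and 233 in replicate 2 and a log2 ratio of 1.28 (interval 1.06 to 1.51). Nr1h2, with 909 and 747 counts, had 0.22 (0.08 to 0.37), so the interval of the LXR-alpha gene lay clear of that of the LXR-beta gene. Scd2 was lower in replicate 1, with 2191 and 5001 counts and a log2 ratio of -1.25 (-1.32 to -1.18). Scd1 had 51 and 119 counts and -1.27 (-1.78 to -0.80), a value within the error of that of Scd2. Dhcr7, with 165 and 320 counts, lay at the threshold and fell under 2-fold with DESeq2 size factors, with library totals and in the second quantification. Scd2, Scd1 and Nr1h3 passed it in the second quantification too, where 11.9% of genes did.

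The other members differed less. Srebf1 had a log2 ratio of 0.53 (0.38 to 0.67) and Scap 0.33 (0.15 to 0.51), whereas Srebf2 had -0.16 (-0.25 to -0.06), and Insig1 (0.09) and Insig2 (-0.15) had intervals that held 0. Among efflux genes Apoe had 0.51 (0.47 to 0.54) and Pltp 0.26 (0.21 to 0.32), Abca1 had -0.06 (-0.09 to -0.04), Abcg1 -0.16 and Soat1 -0.26. The LXR group thus went both ways, with 5 of 8 intervals above 0 and 3 below. Its median was 0.23, and 0.01 with the GC trend taken out, when Nr1h2 (-0.08) and, among fatty acid genes, Fasn (-0.05) changed sign. Lpl had -0.71 (-0.74 to -0.68), and Acaca (0.27), Fasn (0.21) and Plin2 (0.20) lay above 0. On the TPM scale the median of all genes tested lay at 0.35, and changes on that scale include this shift. Relative to it the sterol median was -0.38 and 12 of 14 genes were lower in replicate 1.

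**Figure D3:**
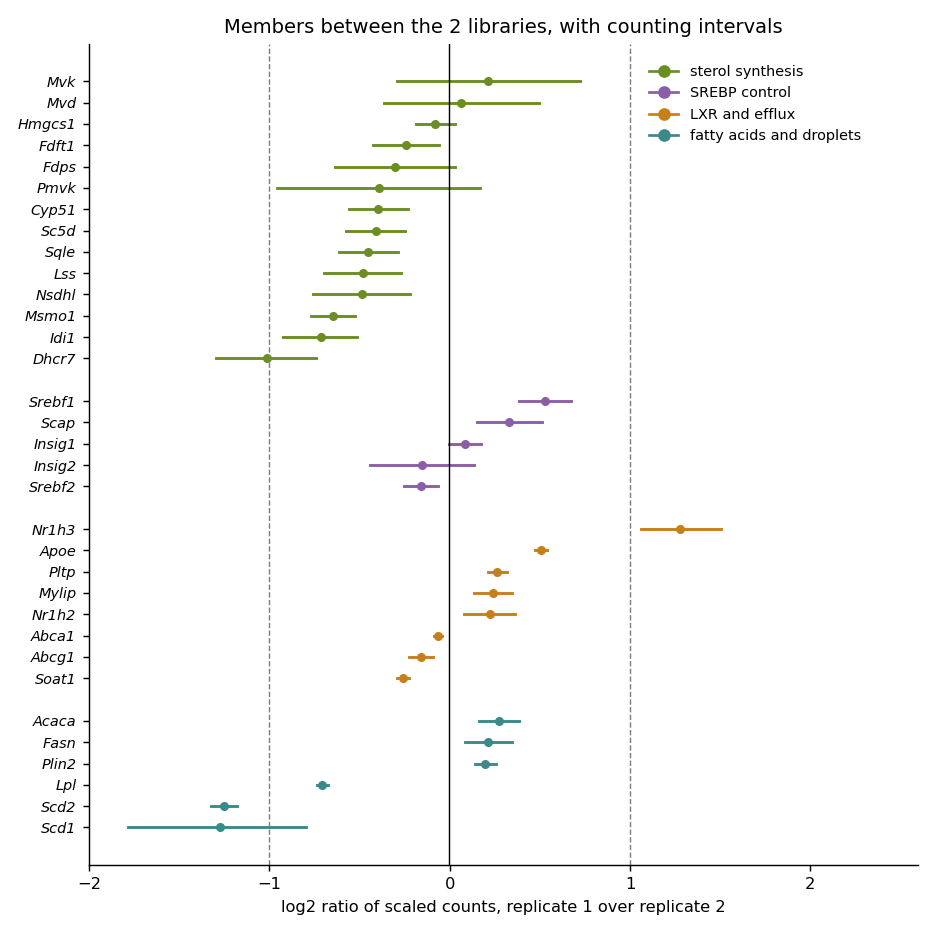
Log2 ratio of scaled counts, replicate 1 over replicate 2 (x axis), for the 33 members with enough counts (y axis), with exact 95% counting intervals as bars, coloured by role. The solid line is the median of all genes tested, -0.0034, and the dashed lines mark 2-fold; 12 of 14 sterol synthesis genes lie left of 0.

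Nuclear RNA holds transcripts at all stages of splicing, and the members differed in how much of their RNA was assigned to transcripts annotated as retaining an intron. Such a transcript is annotated for 24 of the 34 members. Their median share of counts on these transcripts was 6.36% in replicate 1 and 7.93% in replicate 2, against 19.0% and 19.7% over the 6420 genes that have one and average at least 1 TPM. The share was below the all-gene median in both libraries in 14 of 24 members and above it in both in 7. The low ones included the most abundant genes, with Apoe at 0.253% and 0.204%, Lpl at 1.75% and 1.19%, Pltp at 2.17% and 1.18% and Soat1 at 5.95% and 4.56%. Of those above, 5 were sterol synthesis genes, out of 11 that have such a transcript. The median share over these 11 was 11.2% in replicate 1 and 10.4% in replicate 2, below the all-gene median. Lss, which closes the sterol ring, had 59.8% of 314 counts on such transcripts in replicate 1 and 86.8% of 421 counts in replicate 2, and Sqle had 56.8% and 69.1%. Mvk, Msmo1 and Fdps lay between 26.6% and 46.8%. Both LXR receptors were also high, with Nr1h3 at 59.6% and 56.3% and Nr1h2 at 35.2% and 30.3%. In Insig1 the share was 11.6% in replicate 1 and 21.5% in replicate 2, all on Insig1-202, a transcript of 757 bases that gave 37.3% and 54.9% of the gene's TPM, since TPM divides by length.

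**Figure D4:**
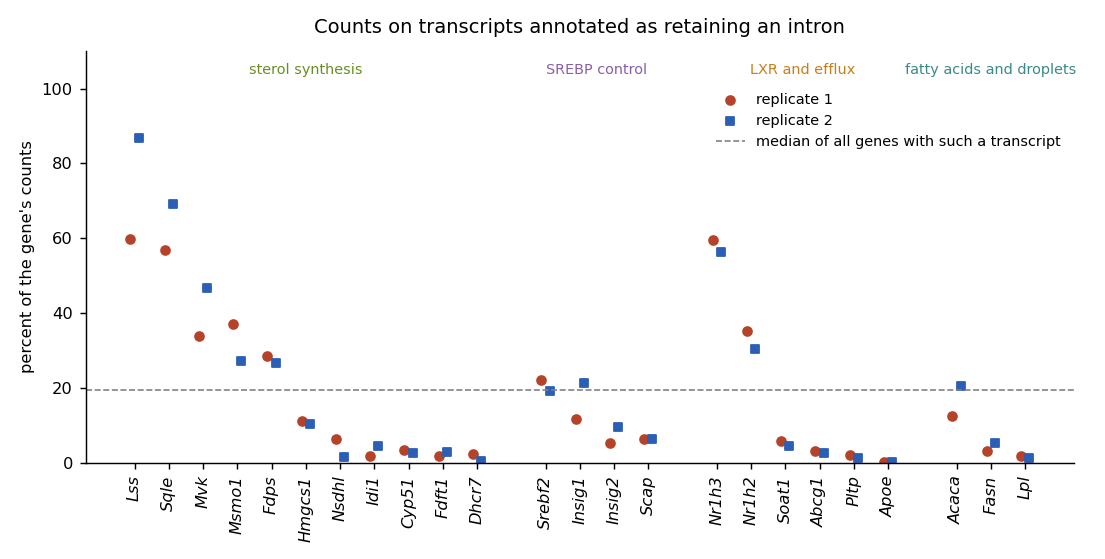
Percent of each gene's counts on transcripts annotated as retaining an intron (y axis) for the 24 members that have one (x axis), in replicate 1 (circles) and replicate 2 (squares). The dashed line, 19.4%, is the mean over the libraries of the median of 6420 genes; Lss, Sqle, Nr1h3 and Nr1h2 lie above it and Apoe, Pltp and Lpl near 0.

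Which transcript carried a gene also bears on its TPM. Lss had 4.0 TPM for replicate 1 and 7.84 TPM for replicate 2, with mean transcript lengths of 4334 and 2515 bases in those tables, although its counts gave a log2 ratio of only -0.48. Acaca, with lengths of 3804 and 5102 bases, had a log2 TPM ratio of 1.06 and a count ratio of 0.27, and Scap had 1.05 and 0.33. The second quantification gave Lss 3.39 and 7.12 TPM and Acaca 11.441 and 12.038 TPM. The scale of these values relative to the first quantification differed between the libraries, as given below. In scaled counts the second quantification had log2 ratios of -0.28 for Lss and 0.27 for Acaca. Abca1 was nearly uniform, with 99.1% and 99.3% of its TPM on the coding transcript Abca1-201. The leading transcript by TPM was the same in both quantifications for 26 of 34 members and was protein-coding in the first for 31. The tables differed in scale, with a median log2 ratio of the first over the second of 0.98 for replicate 1, against 0.0543 for replicate 2. Once centred, 0 of 32 members differed by over 2-fold in either library, against 8.11% and 6.90% of protein-coding genes. The largest gap was that of Lss, at -0.74 in replicate 1. A gene on the opposite strand overlaps 14 members, and reaches 1 TPM in 7 of them, with Ctsb over Fdft1 (2408 and 1876 TPM) and Ctsa over Pltp (544 and 398 TPM) the most abundant. No source used here gives the strand setting, so the values of these 7 genes, Hmgcs1, Mvd, Fdft1, Cyp51, Srebf1, Soat1 and Pltp, are uncertain to that extent.

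The rest of the pathway was read from further lists. All 7 other sterol synthesis genes were above 1 TPM in both libraries, with a median of 5.80 and 4.08 TPM, from Hsd17b7 at 1.02 and 1.07 TPM to Ggps1, which makes geranylgeranyl diphosphate, at 7.59 and 8.36 TPM or Lbr, a sterol reductase of the nuclear envelope, at 8.17 and 5.98 TPM. Beyond counting error 2 of 7 were lower and 1 was higher in replicate 1, shares near or under the 24.5% and 25.6% of all genes tested. Among 6 genes of SREBP processing and turnover all were present, led by the site-1 protease gene Mbtps1 at 30.2 and 20.1 TPM, with Rnf139 lowest at 7.46 and 6.90 TPM. Uptake and transport genes were abundant, with a median of 53.9 and 48.8 TPM. The highest was the receptor gene Lrp1, at 424 and 382 TPM, and the lowest Vldlr, at 0.07 and 0.01 TPM. Lipa, the lysosomal lipase gene, stood at 274 and 241 TPM.

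Of 10 LXR partners and further targets 8 reached 1 TPM, led by the corepressor gene Ncor1 at 112.4 and 105.6 TPM, with Apoc4 at 0.03 and 0.09 TPM in the gene table and 2.88 and 4.81 TPM in the second quantification. Abca7, a transporter related to Abca1, was the only one of the 8 tested over 2-fold apart, against 8.03% of all genes tested, at 9.00 and 3.51 TPM with a log2 ratio of 1.01. That value lay at the threshold and was 0.76 with the GC trend taken out. Of 11 fatty acid synthesis genes 9 reached 1 TPM, led by Elovl1 at 30.0 and 32.8 TPM, with Me1 lowest at 0.15 and 0.17 TPM, and 7 were lower in replicate 1, 6 of them beyond counting error, against 24.5% of all genes tested. Of 11 droplet and lipase genes 8 reached 1 TPM, led by Nceh1, a cholesteryl ester hydrolase gene, at 85.0 and 73.2 TPM, with Dgat2 lowest at 0.08 and 0.06 TPM. The liver and gut esterification gene Soat2 was at 0.16 and 0.21 TPM. Among oxysterol enzymes Cyp27a1, the sterol hydroxylase of mitochondria, was at 134 and 73.1 TPM, Cyp46a1 had at most 0.02 TPM and Cyp7b1 had 0 counts. Pparg, a fatty acid receptor of macrophages, was at 20.98 and 17.1 TPM, and Ppara was listed at 0 in both libraries.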

How the data were processed

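The authors deposited, for each library alone, a gene table and 2 transcript tables. Per the file headers, the first quantification gives expected counts, FPKM, TPM and a posterior-mean TPM with the column names of RSEM, and the second gives estimated counts and TPM with those of kallisto. The accompanying notes deposited with them name mm10 and GENCODE M21; no source used here gives versions or filters. Entries outside annotated genes, 0.823% and 0.207% of counts, stayed out of library sizes.

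The members, lists and rules were chosen with earlier results of these data known. Text names all members and the highest and lowest gene of each further list. Expected counts were rounded and scaled with edgeR 4.0.16 (TMM) in R 4.3.3, and ratios used a prior count of 0.5 and exact binomial intervals. GC trends used lowess (span 0.3). In simulated counts of 15543 genes with counting error only, 50 of 50 genes with a log2 change of 2.5 and 47 of 50 with 1.5 passed the 2-fold rule, as did 68 of 15343 unchanged genes. Retained-intron shares used the annotated transcript class. Intervals came from scipy 1.17.1, trends from statsmodels 0.14.6 and plots from matplotlib 3.10.9, with tables handled in pandas 2.3.3 under Python 3.11.15. A planned comparison of paralogous proteins was not run, and shared 31-base words of transcripts were counted instead. With 1 group no test between conditions was possible. Floors of 3 counts correspond to 0.165 and 0.161 CPM.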

Additional observations from a re-analysis of the deposited data

How the results depend on the processing

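Levels depended most on what the scale holds. With TPM rescaled over nuclear protein-coding genes the group medians were 31.2 for sterol synthesis, 78.0 for SREBP control, 170 for LXR and efflux and 98.6 for fatty acids and droplets, and the order of the groups was the same. The second quantification gave 5.32 TPM for sterol synthesis, 32.5 for LXR and efflux and 14.8 for fatty acids and droplets, the last below its SREBP median of 15.6 TPM. FPKM gave 27.4 for fatty acids and droplets, above the 22.1 of SREBP control. With 1 library left out the medians ranged from 6.445 to 8.555 TPM, 14.7 to 25.1 TPM, 37.3 to 47.5 TPM and 21.98 to 25.8 TPM in that order of groups, so the fatty acid and SREBP groups changed places. The median log2 ratio was 0.19 over all members and -0.0299 over sterol synthesis with TPM, a scale whose all-gene median is 0.35. Under the other scalings, count minimums, prior count and the GC adjustment the sterol median ranged from -0.45 to -0.30, and 3 or 4 members were over 2-fold apart. Chosen after seeing the data were the GC adjustment, TPM ratios less the all-gene median, every alternative for the sterol median, the prior count for the members over 2-fold apart, and single levels with rescaled TPM. The share of counts on the members was 0.560% in the second quantification. The median retained-intron share, 18.9% of TPM, was 7.15% of counts and 25.8% of TPM in the second quantification, and 16.9% to 20.9% with 1 library left out. The number of members at 1 TPM or more ranged from 27 (at 5 TPM) to 33. Of 34 single levels, 25 moved by more than the spread between libraries in the second quantification and 7 with posterior-mean TPM. The 25 were counted without centring, so they include the difference in scale between the quantifications, a median log2 ratio of 0.98 in replicate 1 and 0.0543 in replicate 2. Once centred, 0 of 32 members were over 2-fold apart in either library. No paired analysis was possible because there is 1 group. Depth limits Ch25h, Pmvk, Mvk and Scd1 most.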
